A study of Homo sapiens with 12 samples.

Results

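HK-2, an immortalised cell line derived from human kidney proximal tubules, was treated with an agent called Di or with its vehicle, and expression was compared between both treatments at 2 times. The comparison used all 12 arrays of the 12 in the series: control at 12 h, Di at 12 h, control at 48 h and Di at 48 h, with 3 biological replicates in each group. All groups shared the same serum-free growth conditions, a mixture of DMEM and Ham's F12 with EGF, hydrocortisone, insulin, transferrin and selenite, and all were treated in 6-well plates near confluence. The identity of Di, its dose and the vehicle are not given in the sources used here, and a single cell line was used. The quantity described for each gene is the interaction, the Di minus control difference at 48 h minus the same difference at 12 h. It equals the change over time with Di minus the change over time without Di, so it is positive when Di moved a gene upward relative to what time alone did.

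Cells left in culture change on their own, since growth slows as a layer closes and nutrients are used, so an effect of a compound at a late time is read against controls of the same time. Several stress programmes can run in the same tubular cell. NRF2 is a transcription factor that is freed by oxidants and electrophiles and switches on genes for glutathione synthesis and detoxification. ATF4 and the unfolded protein response are switched on by amino acid shortage and by misfolded protein in the endoplasmic reticulum. Genes of DNA replication and mitosis fall when cells leave the cycle.

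Values are log2 expression values as deposited, the 10626 genes tested are those with signal above a log2 value of 4 in at least 3 arrays, and a gene is called at an adjusted p under 0.05 (limma, Benjamini-Hochberg over all genes tested). Each log2 change is given ± its standard error from that fit (n = 3 arrays per group). The adjusted p-values set a difference between groups against the spread between these replicates, which the fit shares over the groups and moderates across genes. All 6 epithelial markers were measured. Their summed log2 level lay at 62.36 to 64.63 in the arrays of the first 3 groups and at 59.84 to 60.96 in Di at 48 h. From control to Di at 48 h the means of KRT8 (10.55 to 10.68) and KRT18 (12.21 to 12.41) were higher. Those of CDH1 (8.067 to 6.738), KRT19 (11.42 to 10.23), CDH2 (9.108 to 8.127) and EPCAM (13.05 to 12.4) were lower. The part of these differences in the results was not tested. Of 11 proximal tubule markers 2 were measured, PAX8 and CDH6, while LRP2, CUBN, AQP1 and SLC34A1 lay under a log2 value of 4 in every group mean, so the defining transporters of the labelled cell type were not measurable. The summed level of the 11 lay at 43.79 to 46.92 in the first 3 groups and at 40.99 to 41.47 in Di at 48 h. From control to Di at 48 h the mean of CDH6 went from 10.79 to 7.304 and that of PAX8 from 9.343 to 9.733. The others lay under 4 in every array, so the lower sum is that of CDH6 and not of the markers in general. None of 6 endothelial and 6 leukocyte markers was measured, and their summed log2 levels lay between 16.12 and 16.89 and between 14.78 and 15.28 in the 4 groups. Of 7 fibroblast markers DCN, LUM and COL1A1 were measured, of which DCN alone had a called interaction, and the summed level of the 7 lay at 38.38 to 39.87 at 12 h, 36.44 to 36.75 in control at 48 h and 34.31 to 35.23 in Di at 48 h. Of 5 markers of other kidney segments AQP2 was measured, near a log2 value of 5 in all groups. In bulk RNA, fewer cells with a transcript and less of it per cell cannot be told apart. Actin is probed near both ends of its transcript as an RNA quality control, and its 3' minus 5' signal ran from 1.55 to 1.90 in control at 12 h, from 0.9499 to 1.395 in Di at 12 h, from 1.19 to 1.43 in control at 48 h and from 1.35 to 1.49 in Di at 48 h. The Di minus control difference in that gap was -0.491 at 12 h and 0.0754 at 48 h, and these differed by 0.566 (two-sided exact permutation p = 0.025 over 400 arrangements, 3 arrays per group). The same difference for GAPDH was 0.0399 (exact permutation p = 0.695). The part of RNA quality in the changes at 12 h was not tested.

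Di changed expression differently at 48 h and at 12 h for 4067 genes (38.3% of those tested), with 2100 interactions positive (19.8%) and 1967 negative (18.5%). Of these, 1199 were at least 2-fold. The Di change was called for 1453 genes at 12 h (13.7%) and 5413 at 48 h (50.9%). Control changed on its own between 12 h and 48 h for 5621 genes (52.9%), and Di-treated cells changed for 6943 (65.3%). A Di change called at 48 h and not at 12 h, together with a called interaction, was found for 2985 genes (28.1%). A further 296 genes (2.79%) changed the same way at both times and further at 48 h, and 10 (0.0941%) changed less at 48 h. The count of 296 was 154 or 166 when control array 2 or 3 of 12 h was left out, and 183 when Di array 3 of 12 h was left out (arrays are numbered by replicate). For 378 genes (3.56%) both changes were called in the same direction with no called interaction, and 225 genes (2.12%) reversed sign. The plot of the Di change at 48 h against that at 12 h places most genes along the 48 h axis.

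**Figure D1:**
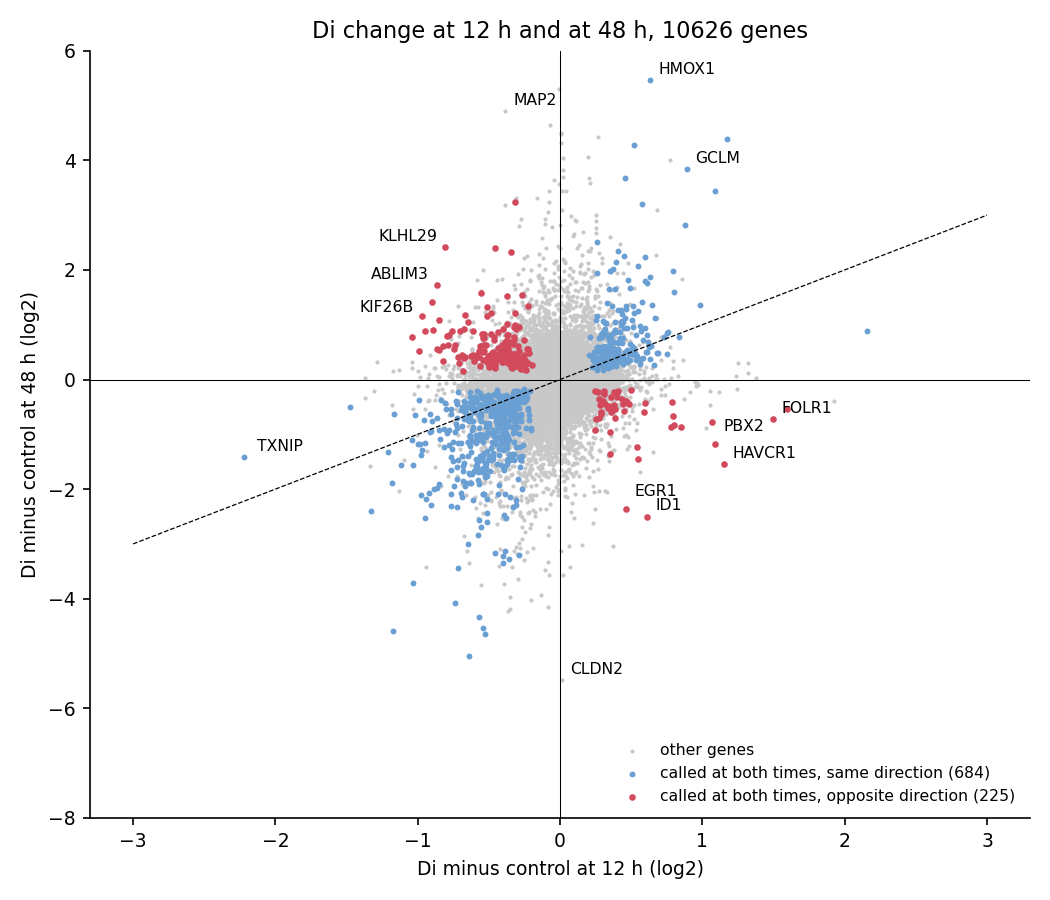
Each point is a gene, with the Di minus control difference at 12 h on the horizontal axis and at 48 h on the vertical axis, both in log2 units and from 3 arrays per group; the dashed line marks equal changes. The 225 red genes lie in the upper left and lower right, called at both times with opposite signs, while HMOX1 (0.63 and 5.46) and CLDN2 (0.01 and -5.49) lie far along the 48 h axis.

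Sign reversal was found for 50 genes that were higher with Di at 12 h and lower at 48 h (0.471% of genes tested), and for 175 that were lower first and higher later (1.65%). The changes were mostly small. The median Di change was 0.40 at 12 h and -0.54 at 48 h in the first set, and -0.41 and 0.46 in the second. Only 28 genes (0.264%) changed at least 1.5-fold at both times. For 223 of the 225 the Di and control arrays did not overlap at either time, against 7.06% of all genes with no overlap in opposite directions. The rule asks for both calls, so this is a description. The count rested on the 12 h controls. It was 106 or 99 when control array 2 or 3 of 12 h was left out, and 146 when Di array 3 of 12 h was. The set of 50 was 29 or 23 with Di array 1 or 3 of 12 h left out, 22 or 25 with control array 2 or 3 of 12 h left out, and 31 with control array 1 of 48 h left out. The set of 175 was 84 or 74 with control array 2 or 3 of 12 h left out. Under 19 other fits with the same threshold, each with another normalisation, filter, probe set rule, model or left-out array, 6 of the 50 and 24 of the 175 were called with the same signs every time. Of 235 other probe sets of the 225 genes, 87.7% had the sign of the interaction, against 84.9% for all genes with a called interaction. Both signs of the reversal were shared by 57.9%, 45.5% in the set of 50 and 60.7% in the set of 175. This is near the 53.4% that shared both Di signs for all genes with a called interaction.

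HAVCR1 encodes KIM-1, a receptor that tubular cells put on their surface after injury. Its log2 values were 9.26, 9.72 and 9.18 in control at 12 h and 10.48, 10.60 and 10.54 in Di at 12 h, then 9.79, 9.97 and 9.86 in control at 48 h and 8.09, 8.56 and 8.32 in Di at 48 h. The Di arrays lay wholly above control at 12 h and wholly below it at 48 h. The change was 1.15 ± 0.145 (2.23-fold, adjusted p = 0.00132) at 12 h and -1.55 ± 0.145 (2.92-fold lower, adjusted p = 4.81e-06) at 48 h, an interaction of -2.70 ± 0.205 (adjusted p = 2.89e-06). Control itself rose over time by 0.49 ± 0.145, so Di at 48 h was below both controls.

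ID1, an inhibitor of differentiation factors that follows BMP signalling, had values of 9.22 to 9.48 in control and 9.88 to 10.17 in Di at 12 h, and 8.11 to 8.30 in control and 5.40 to 5.85 in Di at 48 h. The Di arrays were again above and then below control without overlap, with changes of 0.61 ± 0.129 and -2.50 ± 0.129. The 12 h call of ID1 was lost with control array 2 of 12 h left out. EGR1, an immediate early transcription factor of growth factor signalling, was at 10.25 to 10.70 in control and 10.84 to 11.12 in Di at 12 h, and at 10.49 to 10.56 in control and 8.11 to 8.22 in Di at 48 h. No change of EGR1 over time was called in control (0.02 ± 0.112, adjusted p = 0.919), and EGR1 fell by 2.80 over time with Di. Its reversal held in 16 of the 19 fits, being lost with Di array 2 or 3 of 12 h left out and with the mean of its probe sets, and its other probe set did not share both signs. UBE2C, a ubiquitin-conjugating enzyme of mitotic exit, was the one reversal in the mitosis list, at 0.25 ± 0.0754 and -0.72 ± 0.0754, and held in 6 of the 19 fits, among the array refits only with Di array 1 of 12 h or Di array 3 of 48 h left out.

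CBX5, the heterochromatin protein HP1 alpha, lay at 11.07 to 11.34 in control and 11.97 to 12.04 in Di at 12 h, and at 11.50 to 11.64 in control and 10.58 to 10.86 in Di at 48 h. All 4 of its other probe sets shared the sign of the interaction (-1.64 ± 0.133, adjusted p = 4.66e-06). GTF2I, a general transcription factor, rose over time without Di by 1.60 ± 0.174 and stood at 0.14 ± 0.174 over time with it. PTPN1, a phosphatase of insulin receptor signalling, fell in both arms, by 0.81 without and by 1.98 with Di. EFNA5, an ephrin ligand, went from 0.78 ± 0.118 at 12 h to -0.87 ± 0.118 at 48 h, though its 12 h change was 0.02 and not called with the mean of its probe sets. FOLR1, a folate receptor, went from 1.49 ± 0.209 to -0.73 ± 0.209, and lost its 48 h call with Di array 1 of 48 h left out. PBX2, a homeobox cofactor, went from 1.09 ± 0.228 to -1.17 ± 0.228, but none of its 3 other probe sets shared the sign, and its interaction was not called with the mean of all its probe sets. CDK5, a kinase, and TFAM, which packs mitochondrial DNA, completed the 6 genes of this set that held in all 19 fits. TFAM was 0.47 ± 0.0896 and then -0.41 ± 0.0896, and both were named after their values were seen.

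**Figure D2:**
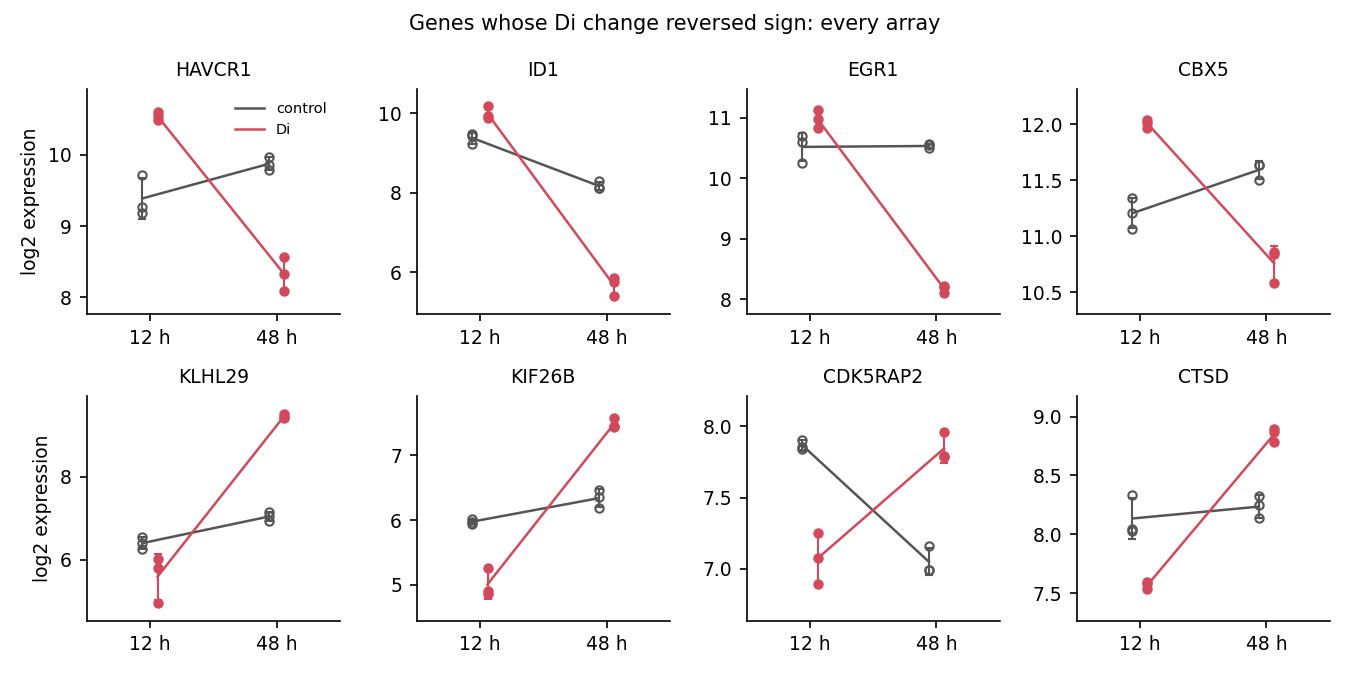
Each panel shows log2 expression of a gene in all 12 arrays at 12 h and 48 h, with open points for control, filled points for Di, lines through the means of 3 arrays and SD bars. The lines cross in every panel, with HAVCR1, ID1, EGR1 and CBX5 higher with Di first and lower later, and the other 4 genes the other way.

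In the opposite direction, KLHL29 is a kelch-repeat protein. Its values were 6.54, 6.27 and 6.40 in control and 5.81, 4.97 and 6.02 in Di at 12 h, and 6.93 to 7.15 in control and 9.42 to 9.51 in Di at 48 h. The groups did not overlap, and the changes were -0.81 ± 0.211 (adjusted p = 0.0294) and 2.41 ± 0.211 (adjusted p = 2.78e-06). The 12 h call was lost with any 1 of the 3 controls of 12 h left out. KIF26B, a kinesin-like protein, was at 5.95 to 6.01 in control and 4.85 to 5.26 in Di at 12 h, then at 6.20 to 6.47 and 7.44 to 7.58 at 48 h, changes of -0.97 ± 0.109 and 1.15 ± 0.109 that held in all 19 fits. ABLIM3, an actin-binding protein, went from -0.86 ± 0.136 to 1.72 ± 0.136, and ANKRD33B, an ankyrin-repeat protein, from -0.90 ± 0.182 to 1.42 ± 0.182. CDK5RAP2, a centrosome protein, lay at 7.84 to 7.91 in control and 6.89 to 7.25 in Di at 12 h, and at 6.99 to 7.16 in control and 7.78 to 7.96 in Di at 48 h. Its levels crossed, since it fell by 0.82 over time in control and rose by 0.77 with Di. CLIP2, INTU and TSPAN2 also reversed, with 12 h changes of -0.95, -0.89 and -0.85 and 48 h changes of 0.88, 0.91 and 1.08, and each lost its 12 h call when single arrays were left out. CLIP2 did so without control array 3 of 12 h, INTU without Di arrays 2 or 3 or control arrays 1 or 3 of 12 h, and TSPAN2 without Di arrays 1 or 2 of 12 h or any 1 of the 6 controls.

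Genes of lysosomes and sorting were also among the reversals, and these were picked after their values were seen. CTSD, the lysosomal protease cathepsin D, was at 8.03 to 8.33 in control and 7.54 to 7.60 in Di at 12 h, and at 8.14 to 8.33 in control and 8.78 to 8.89 in Di at 48 h. The Di arrays moved from below to above control, by -0.56 ± 0.0886 and 0.61 ± 0.0886. CTSB, another cathepsin, also reversed, in 9 of the 19 fits, and so did IGF2R, the receptor that carries lysosomal enzymes, at -0.53 ± 0.0717 and 0.64 ± 0.0717. NDRG1, a stress-responsive gene, had a small decrease at 12 h (-0.46 ± 0.0832) and a large increase at 48 h (2.40 ± 0.0832), while PRKCA, a protein kinase C, went from -0.74 ± 0.119 to 0.64 ± 0.119 and BCL2, an inhibitor of apoptosis, from -0.49 ± 0.0996 to 0.44 ± 0.0996. Each of these except CTSB held in all 19 fits. The share of decreases at 12 h depended on the scaling. Of the genes called at 12 h, 28.5% were higher in the deposited values, 38% after quantile normalisation and 43.8% after centring each array on its median.

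The change that control made on its own gives the second reading of the interaction. Di added to it for 1335 genes (12.6%), of which 531 rose without Di and rose more with it (5%) and 804 fell and fell more (7.57%). It opposed the control change for 1209 genes (11.4%), 495 that rose in control (4.66%) and 714 that fell (6.72%). Of those 1209, 208 still moved the same way as control but less far (1.96%), 587 had no called change with Di (5.52%) and 414 were called in the opposite direction with Di (3.9%). The control arrays enter the interaction with the opposite sign to the one they have in the control change, so an error in them counts toward opposition. The 414 rest on 2 contrasts that share no array. For 385 of them neither arm's arrays overlapped between the times, against 6.1% of all genes with no overlap in opposite directions. Both calls are part of the rule for the 414, so this is a description. The plot of both changes over time shows these sets as separate sectors.

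**Figure D3:**
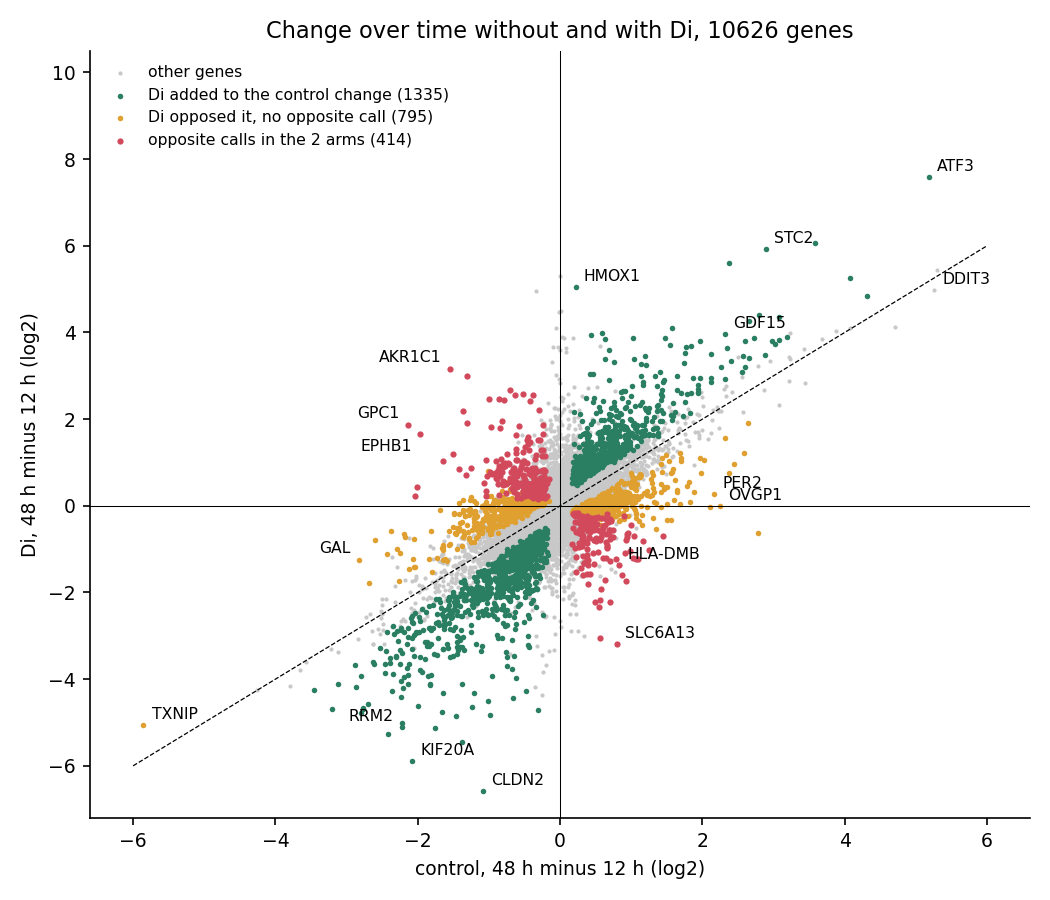
Each point is a gene, with the change from 12 h to 48 h in control on the horizontal axis and in Di-treated cells on the vertical axis, in log2 units and from 3 arrays per group; the dashed line marks equal changes. ATF3 (5.18 and 7.58) lies above the line and RRM2 (-2.22 and -5.11) below it, both in green, and AKR1C1 (-1.55 and 3.16) lies in the red sector where the arms moved apart.

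Endoplasmic reticulum and ATF4 genes rose in control, and Di added to part of that rise. All 19 measured genes of the unfolded protein response rose over time in both arms (21.9% of all genes rose in control and 31% with Di), with medians of 1.97 without and 2.59 with Di, against medians of -0.06 and -0.02 over all genes. Of these, 8 had a positive interaction (19.8% of all genes did) and 11 were not called. The count of 8 differed in 9 of the refits that leave out an array, running from 6 to 9. With Di array 2 of 12 h or of 48 h left out, 1 negative call appeared. HYOU1, a chaperone of the endoplasmic reticulum, was at 7.89 to 8.11 in control and 7.80 to 8.06 in Di at 12 h, and at 10.87 to 11.05 and 11.59 to 11.77 at 48 h. The groups overlapped at 12 h and not at 48 h, with a control rise of 2.98 ± 0.0922 and an interaction of 0.81 ± 0.13 (1.75-fold, adjusted p = 0.000602). The disulfide isomerases PDIA4 (0.99 ± 0.113) and PDIA3, the chaperone HSP90B1 (0.75 ± 0.156), and DNAJB11, SEL1L, EDEM1 and PDIA6 were the others that passed. HSPA5, the master chaperone BiP, did not pass (0.14), with means of 13.1 and 13.3 at 12 h and 15.1 and 15.4 at 48 h.

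Of 26 ATF4 and amino acid response genes, 24 rose over time in each arm (21.9% of all genes rose in control and 31% with Di). A positive interaction was called for 13 (19.8% of all genes) and a negative one for 1, PHGDH (18.5%). The positive count was 10 to 12 in 10 of the 12 refits that leave out an array. The negative count was 3 with Di array 2 of 12 h left out and fell to 0 with Di array 3 of 12 h, Di array 3 of 48 h, control array 2 of 12 h or control array 2 of 48 h left out. The median interaction of 0.22 was small beside a median control rise of 1.70. ATF3, a stress-induced transcription factor, was at 4.42, 4.58 and 3.90 in control and 5.24, 4.20 and 5.51 in Di at 12 h, then at 9.41 to 9.58 in control and 12.52 to 12.60 in Di at 48 h. Its arms overlapped at 12 h and stood apart at 48 h, with a control rise of 5.18 ± 0.277, a rise with Di of 7.58 ± 0.277 and an interaction of 2.40 ± 0.391 (adjusted p = 0.000659). STC2, a secreted glycoprotein, had means of 4.03 and 3.92 at 12 h and of 6.92 in control and 9.85 in Di at 48 h, an interaction of 3.04 ± 0.241. SLC7A5, an amino acid transporter, rose by 2.65 without and 4.26 with Di, and PPP1R15A, outside the list, which ends the translation block of this response, by 1.76 and 3.53. ASNS, asparagine synthetase, rose by 2.88 without and 3.47 with Di, an interaction of 0.59 ± 0.136. DDIT3, the transcription factor CHOP, was already at 12.52 to 12.84 in control at 48 h and reached 12.86 to 13.01 with Di. Its interaction did not pass (-0.28 ± 0.146, adjusted p = 0.162), since Di had raised it by 0.56 at 12 h and by 0.28 at 48 h, and the 48 h call was lost in 7 of the 12 refits that leave out an array, with Di array 3 of 12 h, Di array 1 or 3 of 48 h, control array 1 or 2 of 12 h, or control array 1 or 2 of 48 h left out. Also outside the list, GDF15, a stress cytokine, rose by 2.31 ± 0.0747 without and 3.96 ± 0.0747 with Di, on a probe set marked as possibly cross-hybridising, and its control change was 0.08 on the probe set that stood for it with no level filter. TUBE1 and AFF3 had additions of 1.84 and 1.90, and that of TUBE1 rested on widely spread Di values of 4.94 to 6.90 at 12 h and was lost with Di array 2 or 3 of 48 h, control array 1 or 2 of 12 h, or control array 1 or 3 of 48 h left out.

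Some promoters of these stress genes hold the letters known for their factors, and 3 are printed here. The printed genes were chosen for a called interaction and a match in the printed window, so they do not stand for their lists. Sequences are the 150 bases before the first listed RefSeq start of each gene in GRCh38.p14, on the gene's strand, with the match in capitals. In HSP90B1 (chr12:103930260-103930409, plus strand) the capitals are the endoplasmic reticulum stress element, CCAAT and CCACG with 9 bases between them, on the opposite strand, in ASNS (chr7:97872409-97872558, minus strand) the amino acid response element TGATGNAA, and in GCLM (chr1:93909431-93909580, minus strand), described below, the antioxidant response element core TGACNNNGC on the opposite strand.
HSP90B1: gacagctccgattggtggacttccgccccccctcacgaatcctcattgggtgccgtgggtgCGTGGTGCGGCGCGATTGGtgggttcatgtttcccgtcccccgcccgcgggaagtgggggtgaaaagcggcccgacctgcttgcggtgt
ASNS: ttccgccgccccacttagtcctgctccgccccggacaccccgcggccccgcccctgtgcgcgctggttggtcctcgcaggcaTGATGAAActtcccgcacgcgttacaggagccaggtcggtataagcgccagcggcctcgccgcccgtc
GCLM: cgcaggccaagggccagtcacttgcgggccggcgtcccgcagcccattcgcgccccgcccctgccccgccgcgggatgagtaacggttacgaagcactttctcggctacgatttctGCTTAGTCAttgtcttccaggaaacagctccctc
In the table's windows of 250 bases before to 50 after a start, searched on both strands, the stress element was in 6 of 18 unfolded protein response promoters (33.3%) against 0.0806% of all 27305 promoters and 0.147% of those of the 8818 tested genes that had one. Of those 6 genes HSP90B1 alone had a called interaction, and HSPA5, CALR, CANX, CRELD2 and XBP1 did not. The amino acid response element was in 7 of 22 ATF4 promoters (31.8%) against 3.67% of all and 1.74% of tested genes, namely ATF3, CHAC1, ASNS, SLC3A2, SLC7A1 and CARS1, which had positive interactions, and AARS1 (0.07), which did not pass. The antioxidant core was in 5 of 18 NRF2 target promoters (27.8%) against 13.6% and 15.6%, but also in 5 of 18 unfolded protein response promoters (27.8%) and in 8 of 22 ATF4 promoters (36.4%). The first 2 of these 3 motifs were added after the list values were seen, the CCAAT part of the stress element also counts as a CCAAT match, and a match is not evidence of binding.

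Cell cycle genes fell in control, and Di took them lower. All 28 mitosis genes fell over time in both arms (31% of all genes fell in control and 34.3% with Di). The median fall was 1.98 on the log2 scale without and 2.90 with Di. Of the 28, 25 had a negative interaction (18.5% of all genes did) while 3 were not called. Of 29 DNA replication genes, 26 fell in control and 27 with Di, against the same 31% and 34.3% of all genes. A negative interaction was called for 25 (18.5% of all genes) and a positive one for 1, RFC5 (19.8%). That of RFC5 was lost with Di array 2 or 3 of 48 h, any 1 control of 12 h, or control array 1 or 3 of 48 h left out. RRM2, the regulated subunit of the enzyme that makes deoxynucleotides, was at 13.28 to 13.34 in control and 12.91 to 13.28 in Di at 12 h, and at 10.96 to 11.22 in control and 7.90 to 8.17 in Di at 48 h. The arms overlapped at 12 h and were 8.40-fold apart at 48 h, with falls of 2.22 without and 5.11 with Di and an interaction of -2.88 ± 0.152 (adjusted p = 1.79e-07). MCM7, a subunit of the replicative helicase, had an interaction of -2.73 ± 0.143, CCNE2, a cyclin of S phase entry, of -2.63 ± 0.24, and GINS2 of -2.09 ± 0.123. KIF20A, a kinesin of cytokinesis, was at 9.87 to 9.90 and 9.61 to 9.73 at 12 h, and at 7.74 to 7.86 in control and 3.29 to 4.11 in Di at 48 h, at least 14-fold lower with Di. KIF11, the kinesin that builds the spindle, fell by 1.94 without and by 3.84 with Di. FAM83D, CDCA3 and PIMREG, which act in mitosis, and LRRN4 had interactions of -2.19, -1.99, -1.98 and -2.85. LMNB1, the nuclear lamina protein lamin B1, fell by 1.24 in control and by 4.64 with Di.

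Promoters of replication and mitosis genes are printed because the 2 lists hold different letters. These genes too were chosen for a called interaction and a match in the printed window. In KIF11 (chr10:92592980-92593129, plus strand) and DLGAP5 (chr14:55191586-55191735, minus strand) the capitals are TTTGAA, the cell cycle homology region, on either strand, and in GINS2 (chr16:85688955-85689104, minus strand) they are the E2F letters GGCGGGAA.
KIF11: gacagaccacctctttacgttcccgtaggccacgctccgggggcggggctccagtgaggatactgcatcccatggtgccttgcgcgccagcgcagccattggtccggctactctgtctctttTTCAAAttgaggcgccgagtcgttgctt
DLGAP5: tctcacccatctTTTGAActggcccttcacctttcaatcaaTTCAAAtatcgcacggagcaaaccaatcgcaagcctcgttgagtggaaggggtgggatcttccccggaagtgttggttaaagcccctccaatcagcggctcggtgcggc
GINS2: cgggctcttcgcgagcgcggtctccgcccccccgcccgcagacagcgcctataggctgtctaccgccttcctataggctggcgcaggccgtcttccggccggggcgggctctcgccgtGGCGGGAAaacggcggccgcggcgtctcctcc
TTTGAA was in 15 of 23 mitosis promoters (65.2%) and in 1 of 26 replication promoters (3.85%), against 15.4% of all promoters and 9.55% of those of the 8818 genes tested that had one. GGCGGGAA was in 9 of 26 replication promoters (34.6%) and 1 of 23 mitosis promoters (4.35%), against 3.18% of all and 5.35% of tested genes. CCAAT, the NF-Y letters, was in 18 of 23 mitosis promoters (78.3%) and 14 of 26 replication promoters (53.8%) against 35.7% and 37.4%.

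**Figure D4:**
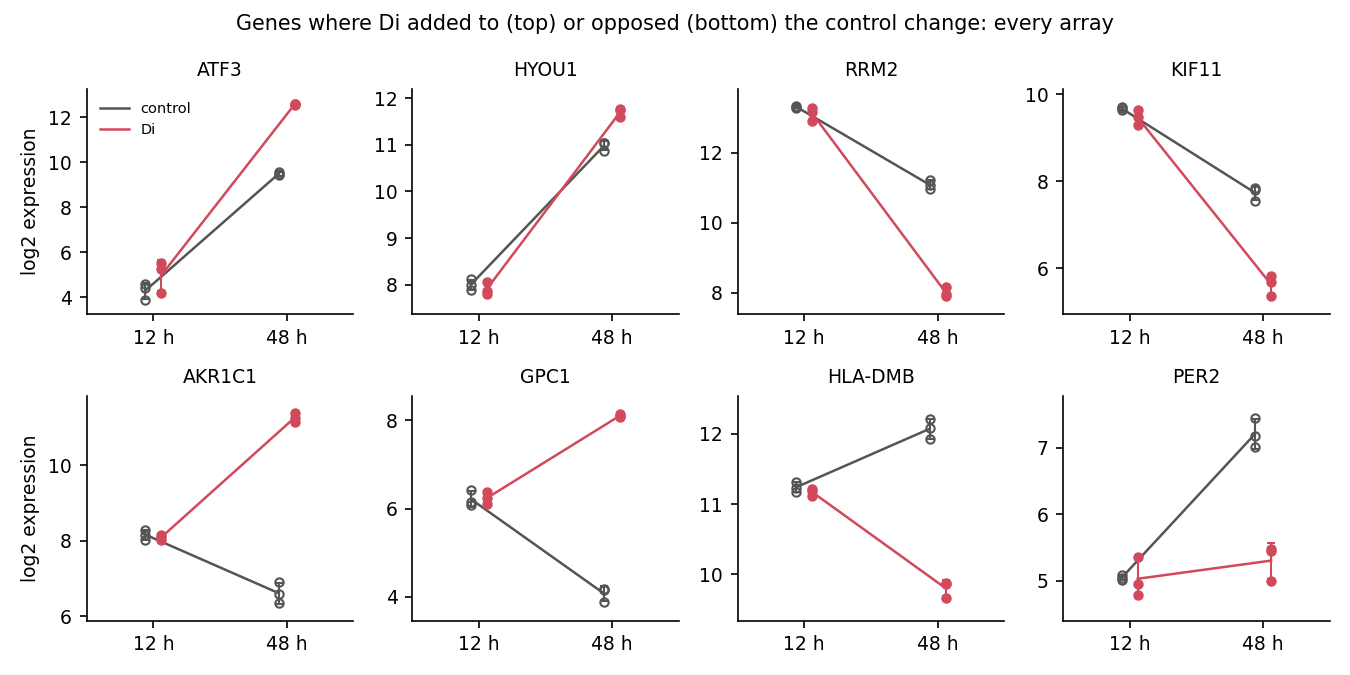
Each panel shows log2 expression of a gene in all 12 arrays, with open points for control, filled points for Di, lines through the means of 3 arrays and SD bars. In the top row Di steepened the control change, as for ATF3, with means of 9.48 in control and 12.57 in Di at 48 h, and in the bottom row it turned or held the change, as for AKR1C1 and PER2.

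NRF2 targets had the largest median interaction of the lists with at least 4 measured genes, 2.11. In 11 of 25 Di opposed a fall in control (6.72% of all genes). Of 25 measured, 24 had a positive interaction (19.8% of all genes did) and 1, TRIM16L, was not called (-0.26). With Di array 2 of 12 h left out, 1 negative call appeared. In control 7 rose (21.9% of all genes) and 11 fell (31%) over time, with a median of -0.14. With Di 24 rose (31% of all genes) and 1 fell (34.3%), with a median of 2.30. Of the 25, 10 (against 2.39% of all genes) fell without Di and rose with it. They were the aldo-keto reductases AKR1C1, AKR1C2 and AKR1C3, NQO1, GCLM, GSR, PIR, TALDO1, TXN and ABCC3. AKR1C1 was at 8.29, 8.03 and 8.17 in control and 8.02, 8.16 and 8.11 in Di at 12 h, and at 6.59, 6.36 and 6.91 in control and 11.38, 11.24 and 11.15 in Di at 48 h. The arms overlapped at 12 h and then moved apart by 24.9-fold, with a fall of 1.55 in control, a rise of 3.16 ± 0.128 with Di and an interaction of 4.71 ± 0.181 (adjusted p = 1.53e-08). AKR1C2 moved likewise (interaction 4.31 ± 0.123). The probe sets of both are marked as possibly cross-hybridising and the genes are near-identical copies, so their signals cannot be separated, and with no level filter other probe sets near background stood for them, with interactions of 0.03 and 0.04. NQO1, a quinone reductase, was at 10.44 to 10.59 in control and 10.82 to 11.06 in Di at 12 h, and at 9.66 to 9.82 in control and 13.37 to 13.44 in Di at 48 h. Di was above control at both times, by 0.46 ± 0.0801 and 3.69 ± 0.0801.

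Large rises with Di were also seen in other members. HMOX1, haem oxygenase 1, was at 7.71 to 7.83 in control and 8.35 to 8.49 in Di at 12 h, and at 7.93 to 8.05 in control and 13.31 to 13.57 in Di at 48 h. Control moved by 0.22 ± 0.0807 and the interaction was 4.83 ± 0.114 (28.4-fold, adjusted p = 7.28e-10). SRXN1, which restores oxidised peroxiredoxins, had an interaction of 3.77 ± 0.0988 and no called control change. GCLC and GCLM, the catalytic and modifier subunits of the enzyme that starts glutathione synthesis, had means of 12.19 and 12.69 with Di at 48 h and of 8.75 and 8.86 in control. GCLM is one of the 10 that fell in control, by 0.39, while GCLC rose there by 0.59. At 12 h GCLM was called (0.89 ± 0.0806) and GCLC was not (0.04 ± 0.082). That difference between the genes was not tested. OSGIN1 and AKR1B10 were under a log2 value of 4 in all groups but Di at 48 h, where they were at least 7.97-fold and 4.17-fold above control. Both passed the level filter through those Di arrays. Their positive interactions, counted among the 24, were thus set by the filter and add no support.

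Heat shock genes, which refold proteins in the cytosol, also opposed the control change, in 8 of 14 (6.72% of all genes fell in control and were opposed). Of 14 measured, 10 fell in control (31% of all genes did), and 12 had a positive and 1 a negative interaction (19.8% and 18.5% of all genes), the small heat shock protein CRYAB. HSPH1, a nucleotide exchange factor of HSP70, was at 10.58 to 10.75 and 10.67 to 10.70 at 12 h, and at 9.89 to 9.97 in control and 11.72 to 12.00 in Di at 48 h. BAG3, its partner in protein clearance, fell by 0.86 in control and rose by 0.92 with Di. Of 18 immediate early and AP-1 genes, 11 had a positive interaction (19.8% of all genes did). Another 5 had a negative one, a share near the 18.5% of all genes. DUSP5, a nuclear phosphatase of ERK, was at 8.47 to 8.67 and 8.68 to 8.88 at 12 h, and at 7.45 to 7.71 in control and 11.08 to 11.42 in Di at 48 h, an interaction of 3.47 ± 0.148. DUSP1 fell by 0.72 in control and rose by 0.97 with Di, and FOSL1, an AP-1 subunit, was at least 9.62-fold above control at 48 h. DUSP6, the cytosolic ERK phosphatase, EGR1, JUNB, IER2 and JUND had negative interactions. Of 13 YAP and Hippo targets 5 were positive (19.8% of all genes were) and 1, TEAD4, negative, or 2 negative with Di array 2 of 12 h, Di array 1 of 48 h or control array 3 of 12 h left out. DKK1, among the 5 and described below, passed the level filter through the Di arrays of 48 h. Its positive call was thus set by the filter and adds no support. The matrix proteins CCN1 and CCN2 and the receptor AXL fell in control and rose with Di. Of 7 glucose-sensing MondoA targets, 5 fell and 1 rose in control (31% and 21.9% of all genes), and 4 had a positive interaction (19.8% of all genes). TXNIP, the thioredoxin inhibitor of that list, was at 9.52 to 9.78 in control and 7.18 to 7.53 in Di at 12 h, and at 3.47 to 4.20 in control and 2.26 to 2.42 in Di at 48 h. Both 48 h means lay under 4, so its positive interaction (0.80 ± 0.239, adjusted p = 0.0219) rests on values near background and was lost with Di array 3 of 12 h, control array 2 of 12 h, or control array 1 or 3 of 48 h left out.

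Among the named genes that fell in control and rose with Di, GPC1, a cell-surface proteoglycan, was at 6.09 to 6.42 and 6.11 to 6.37 at 12 h, and at 3.88 to 4.19 in control and 8.07 to 8.14 in Di at 48 h. The arms overlapped at 12 h and were 16.4-fold apart at 48 h (interaction 4.01 ± 0.157, adjusted p = 1.68e-08). EPHB1, an ephrin receptor, had an interaction of 3.62 ± 0.168, KITLG, the ligand of the KIT receptor and also a sign reversal (-0.32 at 12 h and 3.24 at 48 h, not held after median centring or with the mean of its probe sets), of 3.56 ± 0.0913, and SERPINE2, a secreted protease inhibitor, of 2.70 ± 0.0903. In all, 254 genes fell in control and rose with Di (2.39%) and 160 rose in control and fell with Di (1.51%). In the second set HLA-DMB, an MHC class II chaperone, was at 11.17 to 11.32 and 11.11 to 11.21 at 12 h, and at 11.92 to 12.20 in control and 9.67 to 9.88 in Di at 48 h. It rose by 0.83 ± 0.0883 without and fell by 1.37 with Di. SLC6A13, a GABA and taurine transporter, rose by 0.80 in control and fell by 3.20 with Di, and COL4A3, a basement membrane collagen, rose by 0.93 and fell by 1.74. VEPH1, a signalling adaptor, rose by 0.98 and fell by 1.04. AP1S1, a clathrin adaptor subunit, also met the rule, but its Di values at 48 h spread from 7.47 to 9.47 and overlapped those of 12 h, and its control call was lost with control array 2 or 3 of 12 h or any 1 control of 48 h left out.

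For 587 genes control moved and no change with Di was called, 253 that rose in control (2.38%) and 334 that fell (3.14%). PER2, a repressor of the circadian clock, was at 5.01 to 5.08 and 4.78 to 5.36 at 12 h, and at 7.01, 7.45 and 7.17 in control and 4.99, 5.47 and 5.44 in Di at 48 h. Control stood apart from the other 3 groups, with a rise of 2.17 ± 0.169 against 0.27 ± 0.169 with Di, and that change with Di was called after quantile normalisation and with Di array 1 of either time left out. PTGDS, prostaglandin D synthase, was at 9.71 to 10.03 in all arrays but those of control at 48 h, which lay at 11.53 to 11.59. OVGP1, an oviductal glycoprotein, moved by 2.24 ± 0.199 in control and -0.01 ± 0.199 with Di, and ZNF652, a zinc finger protein, by 2.11 and -0.02, though Di had raised ZNF652 at 12 h by 1.59. BLNK, an adaptor of B cell signalling, rose in control from a mean of 5.50 to 8.28 while its Di means were 4.32 and 3.69, at least 19.5-fold lower at 48 h. On the falling side CCND1, cyclin D1, was at 6.67 to 6.95 and 6.13 to 6.70 at 12 h, and at 5.25 to 5.51 in control and 6.50 to 6.58 in Di at 48 h. NID1, a basement membrane protein, fell by 1.69 in control and stood at -0.09 ± 0.186 with Di, and FAM83H and AFAP1L2 by 1.43 and 1.37 against -0.18 and 0.14.

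For 208 genes Di shortened the control change. CADPS2, a secretion factor, rose by 2.64 in control and 1.90 with Di, and CLDN16, a claudin of renal magnesium transport, by 2.44 and 0.96. FOXO6 rose by 2.59 and 1.23, and SAMD12 by 2.32 and 1.56, the latter with an interaction lost with Di array 1 or 3 of 12 h, Di array 1 of 48 h, control array 2 or 3 of 12 h, or control array 2 of 48 h left out. PRSS23, a serine protease, was at 10.53 to 10.59 and 10.69 to 10.70 at 12 h, and at 7.92 to 7.99 in control and 9.77 to 9.98 in Di at 48 h, falls of 2.60 and 0.79. The taurine transporter SLC6A6 fell by 2.43 and 1.11, the neuropeptide GAL by 2.83 and 1.24, and E2F7, a repressor of the cell cycle, by 2.29 and 1.00.

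In 1133 genes (10.7%) Di at 48 h alone stood apart from the other groups by the calls. The Di change at 12 h and the control change over time were not called there, which does not show that they were absent. MAP2, a microtubule protein best known from neurons, was at 5.97 to 7.19 in all 9 arrays of the other groups and at 11.43, 11.57 and 11.38 in Di at 48 h, an interaction of 5.29 ± 0.325 (39.1-fold, adjusted p = 5.5e-07). PTX3, a secreted pattern-recognition protein, had an interaction of 3.57 ± 0.337 and the noncoding RNA MSC-AS1 of 3.70 ± 0.159. Some genes were under a log2 value of 4 everywhere else. Such genes passed the level filter through the Di arrays of 48 h, so they could only appear as higher there. NMRAL2P, a pseudogene transcript, was at 1.94 to 1.96 elsewhere and at 7.06 to 7.51 in Di at 48 h, at least 9.47-fold higher. DKK1, an inhibitor of WNT signalling, was at least 8.19-fold higher and SNAI2, a transcription factor of epithelial-mesenchymal transition, at least 7.97-fold. CLIP4, a microtubule-binding protein that also rose in control, was 16-fold higher than control at 48 h. In the other direction VCAM1, an adhesion molecule of injured tubules, was at 9.17 to 9.27, 8.68 to 8.97 and 8.81 to 8.94 in the first 3 groups and at 4.35, 4.25 and 5.42 in Di at 48 h. Its Di arrays of 12 h also lay below the controls of 12 h without overlap, though that change was not called. TMEM37, a membrane protein, had an interaction of -3.49 ± 0.366. The other groups stood apart in fewer genes, control at 48 h in 376 (3.54%), Di at 12 h in 117 (1.1%) and control at 12 h in 114 (1.07%). The 117 were 61 or 69 with control array 2 or 3 of 12 h left out and 77 with Di array 3 of 12 h left out, and the 114 were 68 with control array 3 of 12 h left out. NIPBL, which loads cohesin, fell in Di at 12 h alone (-0.79 ± 0.185), and CTSZ, a cathepsin, rose there alone (0.96 ± 0.184). PRRC2A was higher in control at 12 h than in the other groups, with means of 7.74 against 6.65 to 6.86.

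Other genes fell far with Di at 48 h. CLDN2, the pore-forming claudin of the proximal tubule, was at 9.45 to 9.78 and 9.50 to 9.88 at 12 h, and at 8.46 to 8.65 in control and 3.01 to 3.10 in Di at 48 h, at least 23.3-fold lower. TMT1A, a thiol methyltransferase, was at 9.46 to 9.64, 8.80 to 9.05 and 9.24 to 9.27 in the first 3 groups and at 4.19 to 4.24 in Di at 48 h, an interaction of -4.40 ± 0.109. TNFSF10, the death ligand TRAIL, fell by 1.38 in control and by 5.45 with Di. SLC17A3, a urate and organic anion transporter, had an interaction of -3.80 ± 0.146, CYS1, a ciliary protein, of -3.77 ± 0.146, and RASSF10 of -3.61 ± 0.236. SGK1, a kinase that raises sodium transport, was at 12.87 to 13.05 in all arrays at 12 h, and at 11.91 to 11.95 in control and 8.46 to 8.55 in Di at 48 h (interaction -3.49 ± 0.0855). FRMD4B was at least 11.5-fold lower.

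Changes called at 12 h and not called at 48 h, with a called interaction against them, were found for 332 genes (3.12%), 92 higher (0.866%) and 240 lower (2.26%) at 12 h, and for 198 or 194 with control array 2 or 3 of 12 h left out. A 48 h change that was not called is not shown to be absent. SYNE1, a nuclear envelope linker, was at 6.80 to 7.08 in control and 5.83 to 6.04 in Di at 12 h, and at 7.79 to 8.06 and 7.92 to 8.06 at 48 h. Di was below control at 12 h (-0.98 ± 0.0998) and the arms overlapped at 48 h. With the mean of its probe sets, however, the 48 h change of SYNE1 was 0.3022 and was called, with the sign opposite to that at 12 h. GBF1, which starts coat assembly on the Golgi, had an interaction of 1.16 ± 0.182, and INTS1, an Integrator subunit, went from -1.04 ± 0.2 to 0.20 ± 0.2. BAX, a pore-former of apoptosis, went from 1.32 ± 0.292 to 0.11 ± 0.292 and MIDN from 1.32 ± 0.245 to 0.29 ± 0.245, but both interactions depended on single arrays. That of BAX was lost with Di array 2 or 3 of 12 h, control array 2 or 3 of 12 h, or any 1 control of 48 h left out, and that of MIDN with Di array 1 or 3 of 12 h, Di array 3 of 48 h, control array 1 or 3 of 12 h, or any 1 control of 48 h left out. FCF1, a ribosome biogenesis factor, had an interaction of -1.36 ± 0.271 on its brightest probe set, and 0.01 with the mean of its 3 probe sets. The 378 genes with steady changes, 129 up (1.21%) and 249 down (2.34%), were 181 or 203 with control array 2 or 3 of 12 h left out. CHMP1B, a subunit of the ESCRT machinery, was at 8.30 to 8.51 in control and 9.04 to 9.55 in Di at 12 h and at 8.71 to 8.77 and 9.31 to 9.66 at 48 h, with changes of 0.84 and 0.78 and an interaction of -0.06 ± 0.184. LDAF1, which helps lipid droplets form, rose by 0.76 and 0.87, DDA1 by 0.75 and 0.86, and the noncoding RNA LINC00472 fell by 1.21 and 1.32.

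The median change of each gene list with and without Di sets these patterns side by side.

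**Figure D5:**
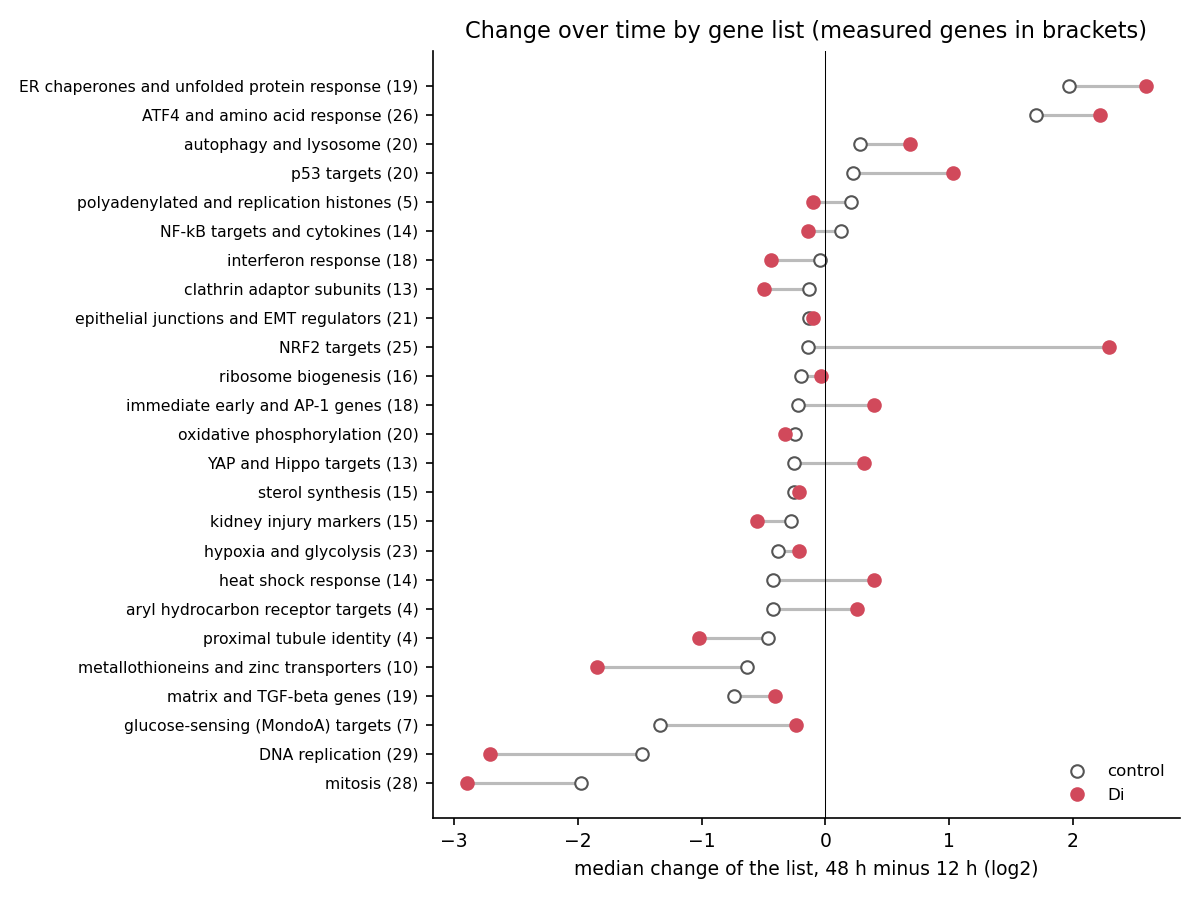
Each row is a gene list with its number of measured genes, and points give the median log2 change from 12 h to 48 h in control (open) and with Di (filled), joined by a line, for lists with at least 4 measured genes. NRF2 targets have the longest line, from -0.14 to 2.30, mitosis and DNA replication move further left with Di, and ER chaperones and ATF4 genes further right.

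Of 20 p53 targets 13 had a positive and 2 a negative interaction (19.8% and 18.5% of all genes), BAX and TP53I3, the 2 being 1 in 7 of the 12 refits that leave out an array (Di array 2 or 3 or control array 2 or 3 of 12 h, or any control of 48 h). Further, 8 that rose in control rose more with Di (5% of all genes did), among them CDKN1A, the inhibitor of cyclin-dependent kinases. CDKN1A was at 9.13 to 9.24 and 9.57 to 9.69 at 12 h, and at 9.42 to 9.59 in control and 11.22 to 11.39 in Di at 48 h (interaction 1.33 ± 0.107). GADD45A, PHLDA3 and TNFRSF10B moved the same way, while TP53I3 fell further with Di. Of 20 autophagy and lysosome genes 12 were positive and 2, ATP6V1A and NPC2, negative (19.8% and 18.5% of all genes). The 2 were 1 with Di array 3 of 12 h, Di array 2 or 3 of 48 h, control array 2 or 3 of 12 h, or control array 1 or 3 of 48 h left out. CTSL, another cathepsin, fell by 0.24 in control and rose by 1.86 with Di, and WIPI1, MAP1LC3B and GABARAPL1, which build autophagosomes, rose in control and more with Di. The median over the list went from 0.28 without to 0.69 with Di.

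All 7 measured metallothioneins fell in control and fell further with Di (7.57% of all genes did). With the zinc importer SLC39A10 they made 8 negative interactions of 10 measured (18.5% of all genes were negative). The zinc exporter SLC30A1 and SLC39A6 made 2 positive ones (19.8% of all genes). Of those 2, 1 was left with Di array 3 of 48 h, control array 3 of 12 h, or control array 1 or 2 of 48 h left out. MT2A, a zinc and copper buffer, was at 13.83 to 13.90 and 13.77 to 13.81 at 12 h, and at 13.09 to 13.14 in control and 11.95 to 12.09 in Di at 48 h (interaction -1.03 ± 0.0846). MT1X had an interaction of -1.48 ± 0.15. Most metallothionein probe sets are marked as cross-hybridising and the genes are near-identical, so the members are not independent measurements.

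Kidney injury markers had 3 positive and 6 negative interactions of 15, beside 19.8% and 18.5% of all genes, so the positive share is that of all genes. The 6 differed in 7 of the refits that leave out an array, running from 5 to 8, and the 3 became 4 in 1. VCAM1, HAVCR1, CCL2 and KRT19 had the largest negative values, while LCN2, the injury marker NGAL, was under 4 at 12 h and at 4.93 to 5.20 in control and 6.69 to 6.99 in Di at 48 h. Of 4 proximal tubule identity genes that passed, CDH6, a kidney cadherin, fell by 1.47 in control and by 4.84 with Di, GATM and DPP4 also had negative interactions, and PAX8 had a positive one (0.59) that was -0.02 with the mean of its probe sets. Among 21 junction and epithelial-mesenchymal genes 7 were positive and 6 negative, against the same 19.8% and 18.5%. SNAI2, among the 7, passed the level filter through the Di arrays of 48 h, so its positive call was set by the filter. The tight junction protein OCLN rose by 0.98 in control and 2.19 with Di, ZEB1 fell in control and rose with Di, and CLDN3 rose by 1.30 in control, with no called change with Di (-0.28). Of 19 matrix genes 13 fell in control (31% of all genes did), and 10 interactions were positive and 3 negative (19.8% and 18.5% of all genes), the negative share being near that of all genes. COL4A1, a basement membrane collagen, fell by 1.01 in control and by 2.10 with Di, whereas TGFB2 and LAMB3 were positive.

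For the remaining lists the positive and negative counts stand beside 19.8% and 18.5% of all genes tested, and several are near those shares. Interferon response genes had 5 positive and 7 negative interactions of 18, with IFI44L rising by 0.53 in control and falling by 1.08 with Di and IRF1 adding to a control rise. The 5 became 3 with Di array 2 of 48 h, control array 2 of 12 h or control array 3 of 48 h left out. NF-kB targets had 2 and 4 of 14, with the chemokine CXCL8 positive (1.30 ± 0.14) and CCL2 negative (-2.19 ± 0.302). Hypoxia and glycolysis genes had 8 and 4 of 23, led by NDRG1 and by the peptide ADM, which fell by 0.42 in control and rose by 2.41 with Di. Sterol synthesis had 3 and 4 of 15, and oxidative phosphorylation had 5 negative ones of 20, from -0.61 for NDUFA2 to -0.36 for ATP5F1A, with the other 15 not called and 1 positive call with Di array 2 of 12 h left out. ATP5F1C, outside that list, had an interaction of 1.01 ± 0.266 on a probe set that none of its 3 others matched in sign. Ribosome biogenesis had 4 and 2 of 16. The 4 became 1 with Di array 3 of 12 h or Di array 1 of 48 h left out and 2 with Di array 1 of 12 h, Di array 3 of 48 h, control array 2 or 3 of 12 h or control array 1 or 2 of 48 h left out, and the 2 became 1 with Di array 2 or 3 of 48 h, control array 2 of 12 h or control array 1 or 3 of 48 h left out. Clathrin adaptor subunits had 1 and 5 of 13, and the 5 were 3 with Di array 3 of either time, control array 2 or 3 of 12 h, or control array 3 of 48 h left out. The 1 positive was joined by others with Di array 1 of either time (2 in all) or control array 1 of 12 h (3 in all) left out. That positive, AP2B1, was -0.03 with the mean of its probe sets. Of 4 measured aryl hydrocarbon receptor targets CYP1B1, a xenobiotic-metabolising enzyme, fell by 1.83 in control and by 4.10 with Di, and NQO1, shared with the NRF2 list, was the positive one. Histones had 1 and 1 of 5, or 2 negative with Di array 2 of 12 h left out.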

How the data were processed

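RNA of HK-2 cells was hybridised to 12 Affymetrix arrays, 3 per group. The authors deposited log2 values made with GCRMA, which corrects background, normalises and summarises probe sets, per the submitters' processing notes (version not given). Arrays hold no counting depth, so their number limits the precision. Arrays of 1 group correlated at 0.995 to 0.998 and array medians lay between 2.97 and 3.06.

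Of 54675 probe sets, 62 controls were left out, and a platform table gave 1 gene for 41097, several for 1801 and none for 11777. A probe set was kept above 4 (log2) in at least 3 of 12 arrays. The brightest kept probe set by mean stood for each gene, and those marked _x_at only where no other was kept (355 genes), giving 10626 genes. limma 3.58.1 in R 4.3.3 (lmFit, eBayes, 1 mean per group) tested the contrasts, two-sided, with 8 residual degrees of freedom, and was tested on simulated data. A fold against a mean under 4 is a lower bound against that floor.

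The groups compared, the 29 lists (519 genes, 408 measured) and the naming rule were chosen with earlier results of these data known. The rule took the genes with the largest changes in each pattern, 3 members per list by interaction, and HMOX1, HAVCR1, TXNIP, CDKN1A, DDIT3 and GCLM. Other genes were named after their values were seen. Promoters are from RefSeq (GRCh38.p14), where 8818 of the 10626 genes matched by symbol. Other motifs, the E-box CACGTG, the cAMP response element TGACGTCA, the heat shock core, the metal response letters TGCGCNC and TGCACNC and the AP-1 site TGAGTCA, were searched and not described. Replicate numbers did not pair the arrays: deviations of same-numbered arrays correlated at -0.394 to 0.167, others at -0.361 to 0.397. Alternatives were other filters, moderation, normalisations, probe set rule, threshold, a replicate block and each array left out. Plots used matplotlib 3.10.9 (Python 3.11.15).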

Additional observations from a re-analysis of the deposited data

Results flagged for a closer look

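The Di change differed between the 2 times by the test of that difference for 4067 genes, so the effect of Di at 12 h does not stand for its effect at 48 h in these genes. For 225 genes both changes were called with opposite signs, among them ID1, EGR1 and HAVCR1, which were higher with Di first and lower later (EGR1 in 16 and ID1 in 18 of 19 other fits). The Di minus control difference in the 3' to 5' gap of actin also changed between the times, by 0.5662 (two-sided exact permutation p = 0.025, 3 arrays per group), since the gap was smaller with Di at 12 h and not at 48 h. Its part in the gene changes was not tested.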

How the results depend on the processing

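Of 302 gene values, 251 kept their direction and their side of the threshold under up to 20 alternatives. Signs turned for ATP5F1C with a level filter of 6 (interaction -0.4279), and, averaging a gene's probe sets, for FCF1 (0.01407), ATP5F1C (-0.08861), AP2B1 (-0.03481) and PAX8 (-0.01822). These probe sets disagree within a gene, and the cause was not tested. Median centring gave 116 reversals from lower to higher and 71 genes with control at 12 h apart. With the replicate number as a block, reversals were 134 (30 and 104) and steady changes 249. Correlations of an array's deviations with the other groups were averaged by replicate number, and in 0 of 12 arrays was that mean highest for its own number. At an adjusted p under 0.01 there were 2671 interactions, 1343 of them positive, 37 reversals (8 and 29), 209 opposite arms (73 and 136), 788 additions (281 and 507), 635 oppositions (78 in part, 348 with no Di call), 106 steady changes, 100 that grew, 104 early, and 36 and 38 genes with Di or control at 12 h apart. Reversals of at least 1.5-fold at both times were 28. Leaving out 1 array at a time gave 3555 to 4418 interactions (1818 to 2120 positive, 1719 to 2298 negative), 99 to 208 reversals (22 to 61 from higher to lower, 74 to 163 from lower to higher), 305 to 464 opposite arms (110 to 202 and 195 to 262), 1084 to 1569 additions (413 to 594 up, 670 to 975 down), 951 to 1364 oppositions (152 to 232 in part, 472 to 668 with no Di call), 181 to 352 steady, 154 to 295 that grew, 194 to 328 early and 2673 to 3372 late genes. The genes with 1 group apart were 1052 to 1231 (Di at 48 h), 315 to 456 (control at 48 h), 61 to 134 (Di at 12 h) and 68 to 112 (control at 12 h). The actin difference ran from 0.4297 to 0.6523 (exact permutation p from 0.02 to 0.065) and that of GAPDH from 0.007775 to 0.09714. Centring changed the share of higher genes at 12 h the most, and 3 arrays per group limit every count.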
